A study of Mus musculus with 56 samples.

Results

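The Igf2-H19 locus of mouse chromosome 7 was followed through its 4 measured products: the messenger RNA of Igf2, the long noncoding RNA H19, and the microRNAs miR-483 and miR-675. They were taken by name from the tables, as 2 of the 21888 gene symbols of the RNA-seq table, which covers 14 livers, and as mmu-mir-483 and mmu-mir-675 among the 479 microRNAs of the small RNA table, which covers 42 livers. All 4 were found, and all 4 passed the filters on low values (a mean of at least 1 FPKM or 10 RPM). All 4 passed because of the groups in which they were high, since their means at day 0 lay below these limits, so a difference from day 0 was favoured by the filter itself.

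The study removed miR-122, the dominant microRNA of hepatocytes, from the liver and sequenced small and long RNA at several times afterwards. All mice were 129Sv/J. Mice carrying loxP sites around miR-122 ("floxed") were left uninjected (day 0) or received rAAV-Cre, a vector of serotype 8 in which the Ef1a promoter drives Cre, into the tail vein. RNA-seq of poly-A RNA was made from 3 floxed livers each of days 0, 21 and 45 (replicates A, B and C), from 1 liver each of days 100 and 200, and from 3 livers of germline miR-122 knockout mice, which lack the microRNA in all cells. Small RNA was sequenced from 24 floxed livers, 3 each at days 0, 7, 14, 21 and 45 and 1 each at days 1, 2, 3, 10, 17, 25, 36, 100 and 200. It was also sequenced from 14 wild type livers, 2 each at E14, E18, P1, P8 and P270 and 1 each at P12, P17, P21 and P28. The last 4 small RNA libraries came from mice in which Cre under the Albumin promoter acts in liver cells, 2 labelled LKO_flox and 2 labelled LKO_floxCre. The study writes of such groups as LKO and LKO + Cre, while the labels give neither ages nor further treatment. Each library is 1 animal, sex is not given, and the germline knockout is compared here with the uninjected floxed mice.

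Igf2 and H19 are neighbours that are controlled together by genomic imprinting. An insulator between them is bound by CTCF when unmethylated, as on the maternal chromosome, where shared enhancers then drive H19, and on the methylated paternal chromosome the same enhancers drive Igf2. Igf2 encodes a growth factor of the fetus that signals through the IGF1 and insulin receptors, both genes are active in fetal liver, and both are silenced in mouse liver after birth. miR-483 is cut from an intron of Igf2 and miR-675 from the H19 RNA itself.

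In the mm9 coordinates of the RNA-seq table, Igf2 spans chr7:149836673-149846940 and H19 spans chr7:149761437-149764051, both on the minus strand, with 72.6 kb between them. The hairpin of miR-675 matched mm9 once, at chr7:149762969-149763052, inside exon 1 of H19. In GENCODE vM1, 3 of the 5 H19 transcripts span it, and it is exonic in 2 of these. The hairpin of miR-483 matched once at chr7:149840829-149840901 and lies in intron 2 of Igf2, with 8 of 9 annotated transcripts spanning it and 0 holding it in an exon. The map of the region shows both hairpins within their hosts.

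**Figure D1:**
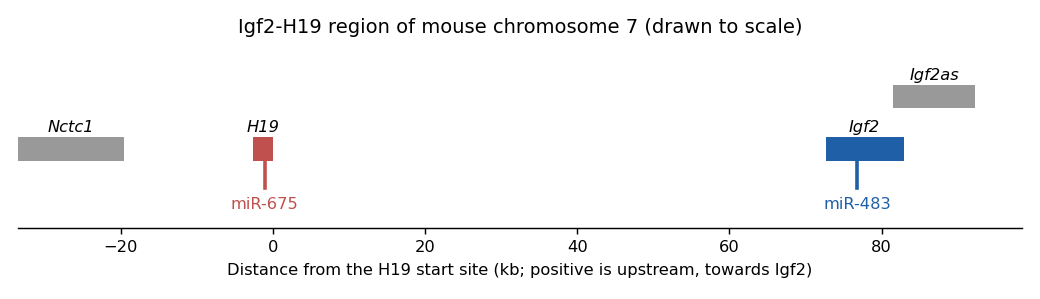
Igf2, H19 and their neighbours Nctc1 and Igf2as on mouse chromosome 7, drawn to scale as boxes over the distance in kb from the H19 start site. miR-675 lies within H19 at -1.08 to -0.999 kb, and miR-483 lies within Igf2, 76.8 kb from the H19 start on the Igf2 side.

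The mature arms are shown because they are what the small RNA libraries count, with the seed (bases 2 to 8, the stretch that pairs with targets) in capitals. The sequences are those of RefSeq for build GRCm38.p6.
mmu-miR-483-5p: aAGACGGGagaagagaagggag
mmu-miR-483-3p: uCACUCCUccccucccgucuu
mmu-miR-675-5p: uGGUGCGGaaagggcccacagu
mmu-miR-675-3p: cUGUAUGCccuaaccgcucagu
The 4 seeds differ from one another, and 0 other arms among the 1679 mature mouse arms of that RefSeq reference carry any of them. So neither microRNA shares a seed family with the other, or with another arm of the reference. The hairpins are given below with both arms in capitals.
mmu-mir-483: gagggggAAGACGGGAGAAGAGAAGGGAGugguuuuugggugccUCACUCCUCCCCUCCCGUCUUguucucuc
mmu-mir-675: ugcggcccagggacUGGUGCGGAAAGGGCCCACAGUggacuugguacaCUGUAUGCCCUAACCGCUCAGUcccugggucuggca
The small RNA table has 1 value for each hairpin, so the 5′ and 3′ arms of miR-483 and of miR-675 could not be told apart in the values that follow.

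Depth and makeup of the libraries bear on these values. The small RNA libraries held 34105 to 929409 reads (median 511772), of which 21824 to 795619 were not miR-122. The listed values summed to 517113 RPM in P270 replicate A, to 661610 in the P28 liver and to 677316 in replicate A of E14, below the common total of the other libraries, so part of the total behind these 3 is not in the rows used here, and scaling to the listed reads raised their RPM and their limits. Values are RPM, the reads of a microRNA scaled to a fixed total of reads other than miR-122. miR-122 took 59.2% to 73.3% of reads at day 0, 8.22% to 13.2% at day 21, 0.383% to 1.23% at day 45, 4.46% at day 100 and 19.1% at day 200. A count of 0 allows up to 3 reads, which is 3.77 to 137 RPM depending on the library, and intervals given for single libraries are exact 95% Poisson intervals that cover counting error only. RNA-seq values are FPKM, for which the number of fragments is not given, so their depth is unknown. Each library is a piece of whole liver, in which more cells of a type and more RNA per cell cannot be told apart. Among the hepatocyte markers, Alb is listed at 0 in every library, while the summed level of the list of 8 was 26736 to 29459 FPKM at day 0.

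H19 was low in uninjected floxed livers and was called higher at day 45 and at days 100 and 200. At day 0 it stood at 2.03, 0.415 and 0.486 FPKM in replicates A, B and C. The day 21 livers had 11.7, 42.9 and 3.92 FPKM and those of day 45 had 392, 845 and 66.3 FPKM. The single livers of days 100 and 200 had 2539 and 2486 FPKM. Every liver from day 21 on was above every day 0 liver, and the 3 livers of day 45 lay above the 3 of day 21, with B highest and C lowest at both times. H19 went from rank 8934 or lower among the genes of a day 0 library to rank 25 at day 100 and 22 at day 200, among the most abundant poly-A RNAs of the liver.

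Mean H19 was 0.976 ± 0.911 FPKM at day 0 and 19.5 ± 20.6 at day 21 (SD, n = 3 each), 19.97 times the day 0 mean, or 7.99 times without day 21 replicate B. That difference did not pass the limma test across all genes (log2 difference 2.92, SE 0.86, adjusted p = 0.0609), although 3 other settings brought it past 0.05. At day 45 H19 had risen to 434 ± 391 FPKM (n = 3), 445 times day 0 and 235 times without replicate B (log2 7.25, SE 0.86, limma adjusted p = 0.000339). At days 100 and 200 the mean was 2512 ± 37.1 FPKM (n = 2), 2573 times day 0 (log2 10.41, SE 0.96, limma adjusted p = 5.07e-05). The further step from day 45 to days 100 and 200 missed the threshold, with a log2 difference of 3.16 and limma adjusted p = 0.307.

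Igf2, too, was called higher at day 45 and at days 100 and 200 and not at day 21. It was listed at 1.82, 0.200 and 0.220 FPKM at day 0 and at 0.496, 0.616 and 3.02 FPKM at day 21, so the groups overlapped. At day 45 it was 39.8, 255 and 3.66 FPKM, and at days 100 and 200 it was 2932 and 2374 FPKM. Day 45 replicate C stood close to the highest day 21 liver and replicate B was the highest of its group. At day 100 Igf2 ranked 19 of 16155 genes above 0 and at day 200 it ranked 24 of 16107.

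The mean of Igf2 at day 45 was 99.5 ± 136 FPKM against 0.746 ± 0.929 at day 0 (n = 3 each), 133 times higher, 29.1 times without replicate B and 198 times without replicate C. It passed the test with a log2 difference of 4.51 (SE 1.12, limma adjusted p = 0.0107). At days 100 and 200 Igf2 averaged 2653 ± 395 FPKM (n = 2), 3555 times day 0 (log2 10.68, SE 1.25, limma adjusted p = 0.000133). Day 21 did not differ from day 0 beyond the spread (log2 0.41, SE 1.12, limma adjusted p = 0.898), and the step from day 45 to days 100 and 200 was log2 6.18 with adjusted p = 0.0892. Without day 45 replicate B that step was log2 7.58 and passed, with limma adjusted p = 0.00886.

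Both transcripts were thus called higher at day 45 and at days 100 and 200, where 23.7% and 28.4% of the 11354 genes tested were called higher too. At day 21, where 6.2% of genes were called higher, neither was. The median gene had a log2 difference of 0.20 at day 45 and 0.31 at days 100 and 200. With each library centred on its median gene, H19 differed by log2 7.03 and 10.09 and Igf2 by 4.30 and 10.37, and all 4 calls held. Over all genes, 2688 were called higher and 339 lower at day 45, 1711 and 724 after centring, and 1601 and 145 without day 45 replicate B. At days 100 and 200 these numbers were 3227 and 365, and 1851 and 900 after centring.

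Over single genes, exact two-sided permutation tests could go no lower than p = 0.1 with 3 livers against 3 and p = 0.2 with 2 against 3, and H19 and Igf2 reached these limits at day 45 and at days 100 and 200. All 8 livers from day 21 on against the 3 of day 0 gave an exact p = 0.0121 for H19, the smallest possible, with a log2 difference of 6.41 and no overlap. The same exact test gave p = 0.0606 for Igf2, with a log2 difference of 4.52 and overlapping groups. It rested on single libraries, since without day 0 replicate A, day 21 replicate A or day 21 replicate B the exact p was 0.0444, 0.0333 and 0.0333.

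Both transcripts were also high in the livers of germline knockout mice. H19 was 3338, 4008 and 1727 FPKM in replicates A, B and C, and Igf2 was 2073, 3169 and 469 FPKM. Replicate C was the lowest for both, and all 3 livers lay above all 3 of day 0. H19 averaged 3025 ± 1172 FPKM (n = 3), 3098 times day 0 (log2 10.59, SE 0.86, limma adjusted p = 1.22e-05), and Igf2 averaged 1904 ± 1358 FPKM (n = 3), 2551 times day 0 (log2 9.83, SE 1.12, limma adjusted p = 0.000127). Here 19.3% of all genes were called higher and 14.5% lower, and the median gene moved by log2 0.02. Knockout and late livers overlapped for both genes, and that difference was not tested.

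Against day 45, the knockout was higher in H19 by log2 3.34 (limma adjusted p = 0.0356) and in Igf2 by log2 5.32 (limma adjusted p = 0.0185), where 1.21% of all genes were called higher. The H19 call was lost without day 45 replicate A or C or without knockout replicate A or B, and the Igf2 call without knockout replicate A or B, with differences of log2 2.31 to 4.13 for H19 and 3.83 to 6.72 for Igf2 over all single libraries left out. In the same comparison 137 genes were called higher and 935 lower, and 169 and 254 after centring. These counts rested on single libraries and on the fit. Without knockout replicate C, 1661 of 11376 genes were called higher and 4258 lower, and with only these 2 groups in the fit 21 and 42. Of all genes, 0.194% were called higher between day 45 and days 100 and 200, a comparison in which neither H19 nor Igf2 was. These were 22 genes, and 108 without day 45 replicate B, 1 without day 45 replicate A or C, and 209 without the filter.

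**Figure D2:**
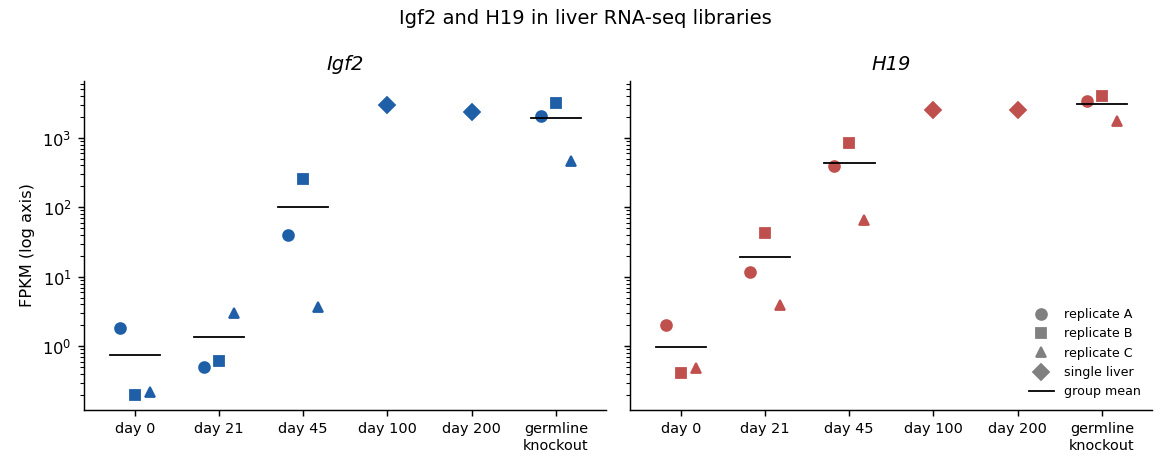
Igf2 (left) and H19 (right) in each of the 14 RNA-seq livers, in FPKM on a log axis, with circles, squares and triangles for replicates A, B and C, diamonds for the single livers of days 100 and 200, and a line at the mean of each group of 3. Every H19 value from day 21 on and every Igf2 value from day 45 on lies above the day 0 values, and both stand above 469 FPKM in every late and knockout liver.

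The balance of the transcripts differed between early and late livers. FPKM are per length, so H19 can be set against Igf2 in each liver. H19 per Igf2 was 1.11, 2.08 and 2.21 at day 0, then 23.5, 69.7 and 1.30 at day 21, and 9.84, 3.31 and 18.1 at day 45. At days 100 and 200 it was 0.866 and 1.05, and in the knockout 1.61, 1.26 and 3.68. An excess of H19 above 3 FPKM per FPKM of Igf2 was seen in 2 of 3 livers of day 21, in 3 of 3 of day 45 and in 1 of 3 of the knockout, and the 2 late livers held nearly equal amounts. This ratio was not tested.

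Other transcripts of the interval were also listed. Igf2as, which overlaps the 5′ part of Igf2 on the opposite strand (chr7:149845598-149856261), was at 0 in all day 0 livers, at 0.158 ± 0.210 FPKM at day 45 (n = 3), at 6.88 and 4.05 FPKM at days 100 and 200, and at 2.53, 3.13 and 0.514 FPKM in the knockout. It passed the filter on low values only through these late and knockout livers, which are also those in which it was called: at days 100 and 200 (log2 2.66, SE 0.34, limma adjusted p = 0.000214) and in the knockout (log2 1.49, SE 0.31, limma adjusted p = 0.00465). Whether the counting used strand is not stated, so reads of Igf2as and Igf2 cannot be told apart. Nctc1, a noncoding RNA downstream of H19 near the shared enhancers, was at 0 in every day 0 liver and reached 4.16 and 3.57 FPKM at days 100 and 200 against 0.089 to 0.658 in the knockout. It missed the filter on low values and was not tested. Ins2 and Th, the genes on the far side of Igf2, were listed at 0 throughout.

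miR-483 was at or near 0 reads up to day 25 and was called higher at day 45 and at days 100 and 200. At day 0 it had 0 reads in each of the 3 libraries, a count that over the group allows up to 4.19 RPM. From day 1 to day 25 no library had more than 2 reads, with 3.32 and 5.79 RPM in day 7 replicates B and C and 7.10 RPM at day 17 as the highest. At day 36 the single liver had 42 reads (86.8 RPM, interval 62.6 to 117). At day 45 the 3 livers had 75.6, 383 and 0 RPM, from 6, 74 and 0 reads, and replicate C, the liver with 3.66 FPKM of Igf2, was the one without a read. The single livers of days 100 and 200 had 4553 RPM (4354 to 4759) and 3518 RPM (3372 to 3668), which placed miR-483 at rank 47 and 49 among the microRNAs of those libraries.

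At day 45 miR-483 averaged 153 ± 203 RPM (n = 3), at least 36.5-fold higher than 3 reads over the day 0 libraries, and at least 9.02-fold without replicate B. It passed the limma test over 259 microRNAs with a log2 difference of 4.95 (SE 1.48, adjusted p = 0.0180), but the call was lost without replicate A (adjusted p = 0.0683) or without replicate B (adjusted p = 0.173). At days 100 and 200 it averaged 4035 ± 732 RPM (n = 2) and was at least 963-fold higher, with a log2 difference of 11.97 (SE 1.65, limma adjusted p = 8.14e-06). The exact test of the 3 day 45 livers against day 0 gave p = 0.4, and that of the 10 livers from day 21 on gave p = 0.140, since libraries at 0 occur in both groups.

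miR-675 stayed without a read in every library from day 0 to day 17. At day 21 it had 1, 3 and 0 reads (2.29, 7.03 and 0 RPM), at day 25 it had 3 reads (7.15 RPM) and at day 36 it had 25 (51.7 RPM, interval 33.4 to 76.3). The 3 livers of day 45 had 37.8, 98.4 and 9.52 RPM, from 3, 19 and 5 reads, with B again the highest and C the lowest. All 3 had reads where the day 0 libraries had 0, although replicate C is below the 11.9 to 13.9 RPM that a count of 0 allows in a single day 0 library. At day 100 it stood at 596 RPM (525 to 673) and at day 200 at 215 RPM (180 to 254), and these intervals do not overlap.

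The day 45 mean of miR-675, 48.6 ± 45.4 RPM (n = 3), was at least 11.6-fold higher than the day 0 limit and at least 5.65-fold without replicate B (log2 5.10, SE 1.05, limma adjusted p = 0.000811). At days 100 and 200 miR-675 averaged 405 ± 270 RPM (n = 2) and was at least 96.7-fold higher (51.2-fold without day 100), with a log2 difference of 8.49 (SE 1.17, limma adjusted p = 8.14e-06). Both microRNAs were thus called at day 45 and at days 100 and 200, among 20.8% and 22.8% of microRNAs called higher. At day 21 miR-483 differed by log2 0.57 (limma adjusted p = 0.906) and miR-675 by log2 1.57 (limma adjusted p = 0.440), and neither passed. From day 45 to days 100 and 200 the differences were log2 7.02 for miR-483 (limma adjusted p = 0.105) and 3.38 for miR-675 (limma adjusted p = 0.873).

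The median microRNA differed by log2 0.54 at day 45 and 0.69 at days 100 and 200. With libraries centred on the median microRNA, miR-483 differed by log2 4.46 and 11.25 and miR-675 by 4.61 and 7.77, and all 4 calls held. Over all microRNAs, 59 were called higher and 2 lower at days 100 and 200, and 49 and 12 after centring. The exact test of the 10 livers from day 21 on against the 3 of day 0 gave p = 0.0280 for miR-675 (log2 4.57), and p = 0.0909 without any 1 of the day 0 livers.

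**Figure D3:**
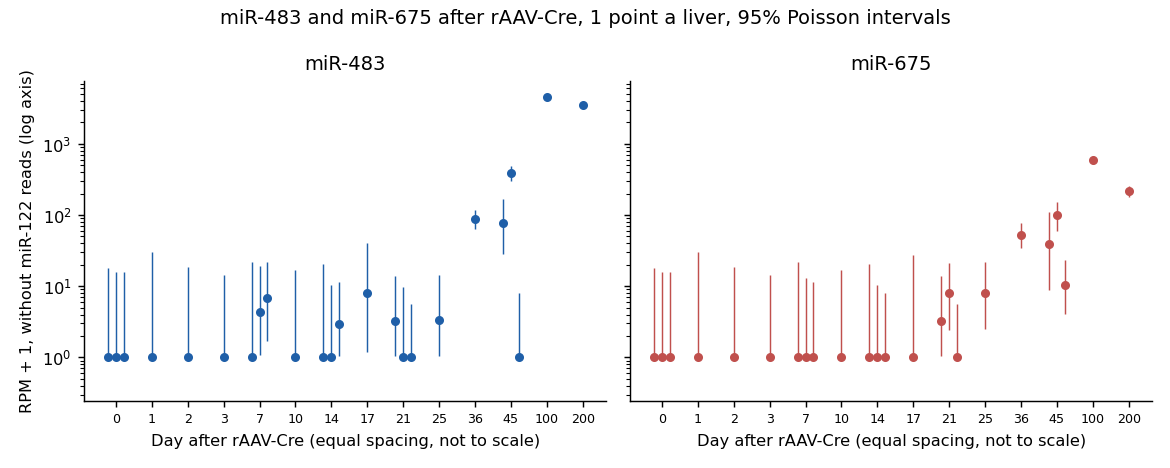
miR-483 (left) and miR-675 (right) in the 24 floxed livers, as RPM + 1 on a log axis against day after rAAV-Cre, 1 point a liver with its 95% Poisson interval. Both stay near the limit of detection until day 25, reach 86.8 and 51.7 RPM at day 36, and part by day 100, with 4553 RPM of miR-483 and 596 RPM of miR-675.

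Across livers, the locus products were ordered by time. H19 had a Spearman rho of 0.96 with day after rAAV-Cre (p = 4e-05, Pearson r of the log2 level 0.80, p = 2e-05, n = 11, 100000 permutations) and Igf2 had 0.91 (p = 0.00039, r 0.85, p = 0.00028, n = 11). miR-675 had a rho of 0.86 (p = 1e-05, r 0.80, p = 1e-05, n = 24) and miR-483 had 0.66 (p = 0.00084, r 0.82, p = 1e-05, n = 24). A p of 1e-05 is the smallest that these permutations can give. Without the livers of days 100 and 200, r was 0.93 for H19, 0.75 for Igf2, 0.88 for miR-675 and 0.68 for miR-483, and all 4 relations held. These 4 relations and the 2 that follow form a family of 6, and each stayed below 0.05 after Benjamini-Hochberg adjustment, the largest adjusted p for rho being 0.00753.

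The submitters describe the small RNA libraries of these times as made from the livers used for RNA-seq, so each microRNA was set against its host, with libraries matched by day and replicate letter. H19 and miR-675 went together in the 11 livers, with r = 0.98 (p = 1e-05) and rho = 0.98 (p = 1e-05, 100000 permutations), and r was 0.99 without days 100 and 200. Igf2 and miR-483 had r = 0.98 (p = 0.00012) and rho = 0.78 (p = 0.00753, 100000 permutations). Without days 100 and 200, the order of Igf2 and miR-483 was no longer past the threshold (rho 0.56, p = 0.1197, r 0.93, p = 0.0103, n = 9, permutation test), so their rank relation rests on those 2 livers.

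The amount of microRNA per host transcript rests on few reads before day 100. miR-483 gave 4.61 RPM per FPKM of Igf2 in day 21 replicate A (0.116 to 25.6, from 1 read), 1.90 in day 45 replicate A (0.697 to 4.13), 1.50 in replicate B (1.18 to 1.89), 1.55 at day 100 (1.48 to 1.62) and 1.48 at day 200 (1.42 to 1.55). These intervals all overlap, and they cover counting error and not the spread between mice. Among livers without a read, the upper end of the same exact interval was 1.91 in day 45 replicate C, 1.53 in day 21 replicate C and 9.39 or more in the other livers of days 0 and 21. For miR-675 the ratio to H19 was 0.196 (0.00495 to 1.09) and 0.164 (0.0336 to 0.476) in day 21 replicates A and B. In day 45 replicates A, B and C it was 0.0966 (0.0199 to 0.282), 0.116 (0.0701 to 0.182) and 0.144 (0.0465 to 0.334). The single later livers had 0.235 at day 100 (0.207 to 0.265) and 0.0863 at day 200 (0.0723 to 0.102). H19 had nearly the same FPKM at days 100 and 200, while the intervals of miR-675 per H19 did not overlap, with 1 liver at each time. The 2 ratios are of different units, RPM and FPKM, and compare livers with each other and not microRNA molecules with transcripts.

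**Figure D4:**
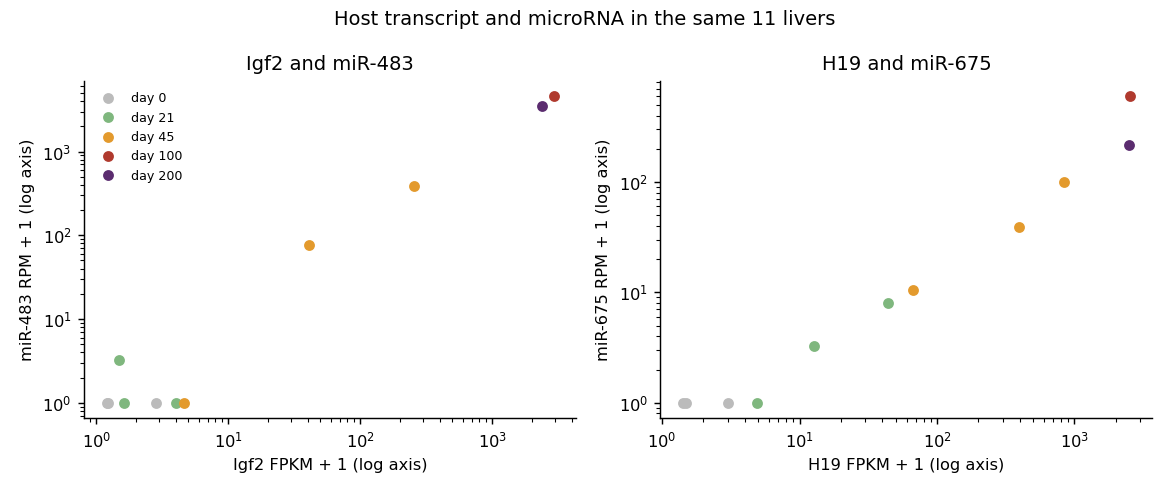
Host transcript (FPKM + 1, log axis) against its microRNA (RPM + 1, log axis) in the 11 floxed livers with both libraries, coloured by day, Igf2 with miR-483 on the left and H19 with miR-675 on the right. Below 4 FPKM of the host, 1 of 7 livers had a read of miR-483 and 0 of 4 had one of miR-675, and above it all 4 and all 7 livers did, with higher values where the host was higher.

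In wild type development both microRNAs were high around birth and without a read in adults. The pair of E14 livers had 118 and 1151 RPM of miR-483, the E18 pair had 5697 and 5160, the P1 pair had 3577 and 9079, and the P8 pair had 3405 and 13123, followed by 5408 in the P12 liver. In the single older livers it was 1611 RPM at P17, 240 RPM at P21 from 6 reads, and 0 reads at P28, which allows up to 87.6 RPM. Both P270 livers had 0 reads, which allows up to 10.8 RPM over the pair. At its highest, in P8 replicate B, miR-483 ranked 24 among the microRNAs of the library.

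miR-675 was lower than miR-483 in E14 replicate B and in every library from E18 to P17. In E14 replicate A it was not, with 6 reads against 4 of miR-483. Its values were 177 and 70.6 RPM for the E14 pair, 247 and 279 for E18, 389 and 245 for P1, 276 and 588 for P8, then 204 for P12 and 129 for P17. It had 0 reads at P21, 3 reads at P28 (87.4 RPM) and 0 at P270. The levels of the single livers at P21 and P28 lay within a few reads of 0, where the depth of these libraries cannot order them.

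From P8 to P270 miR-483 fell by 12.71 on the log2 scale (SE 1.19, limma adjusted p = 8.04e-05, n = 2 each), with P8 at least 767-fold higher than 3 reads over the P270 libraries, and at least 316-fold without P8 replicate B and 1218-fold without P8 replicate A. miR-675 fell by 8.66 (SE 0.94, limma adjusted p = 0.000192), with P8 at least 40.1-fold higher and at least 25.6-fold without P8 replicate B. Both had 0 reads at P270 and passed the filter of this fit through the E14 to P8 livers, so the filter favoured a fall from P8 to P270. In that comparison 31.2% of 327 microRNAs were called lower, the median microRNA was lower by 2.07 (a log2 difference of -2.07), and after centring miR-483 and miR-675 still fell by 10.80 and 6.75. Centring changed the calls over all microRNAs from 2 higher and 102 lower to 11 higher and 55 lower. The steps from E14 to E18, from E18 to P1 and from P1 to P8 were not called for either microRNA. The largest of them, miR-483 from E14 to E18, was log2 3.87 (SE 1.19, limma adjusted p = 0.0876), with its E14 livers far apart and only 4 reads in E14 replicate A. With the replicate letter as a block it passed, at limma adjusted p = 0.0288, as it did without E14 replicate B (limma adjusted p = 0.0241).

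On the scale without miR-122 reads, the adult levels reached after miR-122 loss lay within the range of the perinatal livers for miR-483. Days 100 and 200, at 4553 and 3518 RPM, fell between the lowest and highest of the E18, P1, P8 and P12 libraries (3405 and 13123 RPM). The miR-675 values of 596 and 215 RPM lay just above and within the range of the same libraries (204 to 588 RPM). miR-122 took 4.46% of reads at day 100 and 19.1% at day 200, but 27.2% to 82.9% in those wild type libraries. On a scale of all listed reads, days 100 and 200 would thus stand higher against them than given here. The groups differ in genetic manipulation as well as age, and no test was made of these levels.

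The share of miR-483 in the reads of both microRNAs was lower in the earlier floxed livers, in a test that depends on the least number of reads required. Among libraries with at least 20 reads of both together, miR-483 took 62.7% at day 36 (Wilson interval 50.7 to 73.3), 79.6% in day 45 replicate B (70.3 to 86.5), 88.4% at day 100 (87.0 to 89.7) and 94.3% at day 200 (93.2 to 95.1). In the 9 wild type libraries from E14 replicate B to P17 it took 90.2% to 97.4%. Left out by that minimum were E14 replicate A with 4 of 10 reads (40%), P21 with 6 of 6, day 45 replicates A and C with 6 of 9 and 0 of 5, and libraries with fewer than 5. The floxed mean of 81.2% ± 13.8 (n = 4) was 13.2 percentage points below the wild type mean of 94.4% ± 2.27 (n = 9), a difference of -13.2 with an exact two-sided permutation p of 0.0140. With only days 100 and 200 it was -3.07 points and p = 0.182 (exact permutation test), so the difference rests on days 36 and 45. With a minimum of 5 reads, a choice made after seeing the data, it was -24.7 points over 6 floxed and 11 wild type libraries and did not pass (exact permutation p = 0.0897).

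LKO livers carried both microRNAs as well, 1 of them at a far lower level. miR-483 was 6161 RPM (2026 reads) in LKO_flox replicate A but 5.88 RPM (3 reads) in LKO_flox replicate B, and 5248 and 3650 RPM in LKO_floxCre replicates A and B. miR-675 was 982 and 47.2 RPM in LKO_flox A and B, and 365 and 263 RPM in LKO_floxCre A and B. The share of miR-122 was 9.38% in LKO_flox A, 3.09% in LKO_flox B and 0.837% to 1.11% in LKO_floxCre. Its relation to the locus microRNAs in these livers was not tested. In LKO_flox B miR-483 took 11.1% of the reads of both microRNAs (3.85 to 28.1, 27 reads), against 86.2% in LKO_flox A and 93.5% and 93.3% in LKO_floxCre.

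Against the uninjected floxed livers, LKO_floxCre rose in miR-483 (log2 12.10, SE 2.09, limma adjusted p = 0.00123, at least 1062-fold) and in miR-675 (log2 8.28, SE 1.17, limma adjusted p = 0.000286, at least 74.9-fold), among 23.8% of microRNAs called higher. The miR-483 call was lost without LKO_floxCre replicate A or B (limma adjusted p = 0.102 and 0.0844). LKO_flox rose in miR-675 (log2 7.77, SE 1.17, limma adjusted p = 0.000739), at least 123-fold, 11.3-fold without replicate A and 234-fold without replicate B. LKO_flox was also called for miR-483 (log2 7.69, SE 2.09, limma adjusted p = 0.0265), among 15.6% called higher, but this call was lost without day 0 replicate B or C, with a pseudocount of 10, without the filter and with the replicate letter as a block (limma adjusted p = 0.0824). Without LKO_flox replicate A the call held at a smaller difference of log2 2.78 (limma adjusted p = 0.0489), but the library left has 3 reads, and its 5.88 RPM is 1.40 times the day 0 limit of 4.19 RPM, against at least 736-fold with both libraries and at least 1471-fold without replicate B. The lone libraries left by such omissions are assumed to vary like the other groups. Between LKO_floxCre and LKO_flox neither microRNA was called, at log2 4.41 for miR-483 (SE 2.29, limma adjusted p = 0.845) and 0.51 for miR-675 (SE 1.28, limma adjusted p = 0.992). With LKO_flox replicate A left out, the miR-483 difference was 9.31 with limma adjusted p = 0.00455, and with LKO_flox replicate B left out both differences changed sign, to log2 -0.49 for miR-483 and -1.66 for miR-675, neither called. For LKO_floxCre against day 0, 61 microRNAs were called higher and 2 lower, and 52 and 8 after centring.

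**Figure D5:**
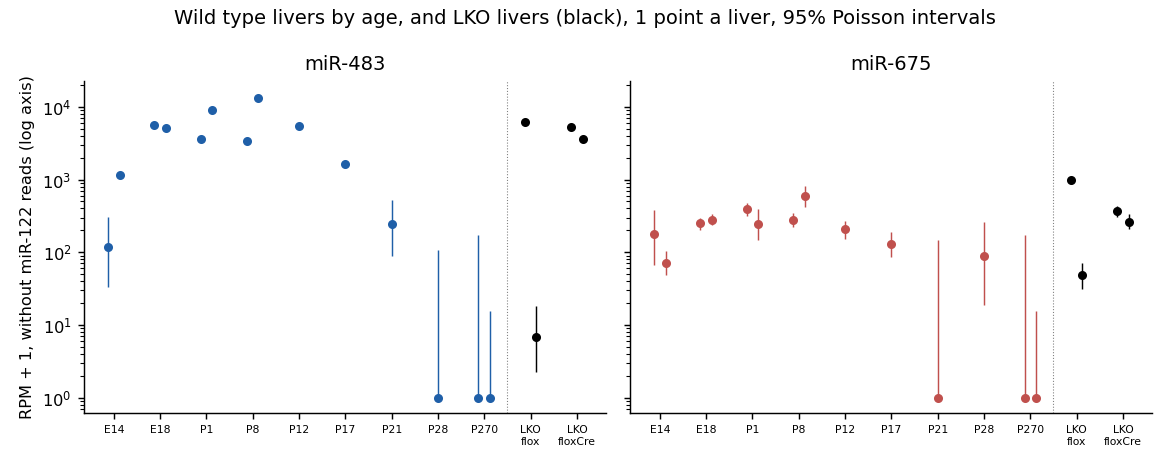
miR-483 (left) and miR-675 (right) as RPM + 1 on a log axis in 14 wild type livers by age and, in black right of the dotted line, in 4 LKO livers, 1 point a liver with its 95% Poisson interval. Wild type values are highest in P8 replicate B and at 0 reads in both P270 livers, and LKO_flox replicate B stands apart from the other LKO livers at 5.88 and 47.2 RPM.

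The remaining genes of the distal chromosome 7 imprinted region were counted as a list. Igf2as was kept in it, although its reads cannot be told apart from those of Igf2. The counts at days 100 and 200 and in the knockout thus include Igf2as. Of 28 listed neighbours 15 passed the filter, and 2, 6, 6 and 8 of them were called higher at day 21, day 45, days 100 and 200 and in the knockout, with 0 called lower. Over all genes 6.2%, 23.7%, 28.4% and 19.3% were called higher and 1.42%, 2.99%, 3.21% and 14.5% lower in these comparisons. Their median log2 differences were 0.07, 0.31, 0.59 and 0.89, against 0.06, 0.20, 0.31 and 0.02 over all genes. After centring, 4 were called higher at day 45 (15.1% of all genes), and 6 higher and 2 lower at days 100 and 200 (16.3% and 7.93% of all genes). Of the 15 tested, 6 had a day 0 mean below the filter's 1 FPKM and passed it through groups in which they were higher, among them 4 of the 6 called at day 45 (Phlda2, Kcnq1 and Osbpl5 of those named here), so the filter favoured their difference from day 0. Lsp1, a leukocyte actin-binding protein, went from 2.50 ± 0.793 FPKM at day 0 to 14.3 ± 4.34 at day 45 (log2 2.11, SE 0.39, limma adjusted p = 0.00228). Phlda2, a maternally expressed growth restrainer of the placenta, went from 0.0753 ± 0.0771 to 2.76 ± 1.37 FPKM (log2 1.73, SE 0.26, limma adjusted p = 0.000976), and Kcnq1, a potassium channel gene of the neighbouring imprinted domain, from 0.612 ± 0.194 to 2.57 ± 0.838 FPKM (log2 1.13, SE 0.25, limma adjusted p = 0.00623; n = 3 each). Osbpl5, an oxysterol-binding protein gene, was called at day 45 too (log2 0.95). Without knockout replicate C, 10 of the 15 were called higher in the knockout, where the calls over all genes then went to 3610 higher and 3490 lower (31.7% and 30.7%) from 2191 and 1642.

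Of 21 genes of IGF ligands, receptors and binding proteins, 13 were tested. At day 45, and again at days 100 and 200, 2 were called higher and 1 lower (over all genes 23.7% and 28.4% higher, 2.99% and 3.21% lower), with 0 called at day 21. In the knockout 2 were higher and 3 lower (19.3% and 14.5% over all genes). Their medians were -0.09, 0.04 and -0.04 at day 45, at days 100 and 200 and in the knockout, against 0.20, 0.31 and 0.02 over all genes. Igf2r, the receptor that carries IGF2 to lysosomes and is itself imprinted, went from 6.41 ± 1.02 to 14.6 ± 2.59 FPKM at day 45 (n = 3 each, log2 1.07, SE 0.24, limma adjusted p = 0.00636). Igfbp7, a secreted binding protein, went from 91.3 ± 8.48 to 336 ± 130 FPKM (n = 3 each, log2 1.80, SE 0.25, limma adjusted p = 0.000647) and to 462 ± 10.2 at days 100 and 200 (n = 2). Igfbp2, a binding protein made by hepatocytes, was 458 ± 167 FPKM at day 0 and 200 ± 65.3 at day 45 (n = 3 each, log2 -1.17, SE 0.39, limma adjusted p = 0.0428), a call lost without day 0 replicate A or C or day 45 replicate B or C. Igf1, the adult liver's main IGF, was at 190 ± 17.7 and 213 ± 57.7 FPKM (n = 3 each) and was not called. Insr, the insulin receptor, fell in the knockout, from 16.9 ± 1.82 to 6.09 ± 2.79 FPKM (n = 3 each, log2 -1.40, SE 0.25, limma adjusted p = 0.00224), and was not called at day 45 or at days 100 and 200. Igf1r, the main signalling receptor, missed the filter.

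Among genes that keep imprints or silence fetal liver genes, 12 of 17 were tested. None was called at day 21, 2 were called higher at day 45, 3 at days 100 and 200, and 1 higher and 2 lower in the knockout, where the shares over all genes were 6.2%, 23.7% and 28.4% higher, and 19.3% higher and 14.5% lower. Uhrf1, which guides the maintenance methyltransferase to replicated DNA, went from 0.155 ± 0.0876 to 1.77 ± 0.553 FPKM at day 45 (log2 1.25, SE 0.27, limma adjusted p = 0.00496), and Dnmt1, that methyltransferase, from 2.23 ± 0.492 to 4.52 ± 0.996 FPKM (n = 3 each, log2 0.77, SE 0.20, limma adjusted p = 0.0134, lost without day 0 replicate A or day 45 replicate B). Uhrf1 had a day 0 mean below 1 FPKM and passed the filter through the groups in which it was higher. Both are expressed in dividing cells, and the summed level of 6 proliferation markers was 1.69 to 7.56 FPKM at day 0 and 13.02 to 25.2 at day 45. The part of cell division in the levels of Uhrf1 and Dnmt1 was not tested. Ctcf, which binds the insulator, was at 9.32 ± 0.846 and 10.2 ± 1.61 FPKM (n = 3 each) and was not called in any comparison with day 0. Without knockout replicate C, 2 of this list were higher and 5 lower in the knockout (31.7% and 30.7% of all genes in that fit).

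Other fetal liver genes were counted beside Igf2 and H19. Of 13 genes 10 were tested, and 1, 5, 7 and 5 were called higher at day 21, day 45, days 100 and 200 and in the knockout, with 0 called lower, against 6.2%, 23.7%, 28.4% and 19.3% of all genes called higher. Their medians were 0.25, 0.64, 1.37 and 0.96, against 0.06, 0.20, 0.31 and 0.02 over all genes. After centring the counts at day 45 and at days 100 and 200 were 4 and 5 (15.1% and 16.3% of all genes). Afp, the fetal counterpart of albumin, was at 0.632, 0.673 and 0.545 FPKM at day 0, at 5.09, 12.8 and 6.53 at day 45, at 12.5 and 12.1 at days 100 and 200 and at 14.9, 21.3 and 9.50 in the knockout. Its log2 difference at day 45 was 2.41 (SE 0.31, limma adjusted p = 0.000465). Cd24a, a surface protein of progenitor and ductal cells, went from 2.62 ± 0.664 to 38.5 ± 19.8 FPKM at day 45 (n = 3 each, log2 3.34, SE 0.34, limma adjusted p = 0.000128). Sox4, a transcription factor of progenitors, went from 0.524 ± 0.226 to 5.04 ± 3.61 FPKM (n = 3 each, log2 1.84, SE 0.38, limma adjusted p = 0.00395). Afp and Sox4 had day 0 means below 1 FPKM and passed the filter through the groups in which they were higher, as did 3 of the 10 tested in all. Without knockout replicate C, 5 of this list were higher and 2 lower in the knockout (31.7% and 30.7% of all genes in that fit).

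Markers of other liver cell types moved in the same comparisons. The summed level of 7 ductal markers was 50.3 to 65.4 FPKM at day 0, 142 to 208 at day 21, 412 to 1352 at day 45, 2943 at day 100, 1939 at day 200 and 562 to 816 in the knockout, with 2, 6, 7 and 6 of the 7 called higher in turn, where 6.2%, 23.7%, 28.4% and 19.3% of all genes were. That of 9 stellate cell and fibroblast markers was 147 to 201 at day 0, 403 to 663 at day 45, 663 and 670 at days 100 and 200, and 197 to 341 in the knockout, with 9 of 9 called higher at day 45 and 5 of 9 in the knockout. Of the 5 macrophage markers in the table, 5 were called higher at day 45 and 3 in the knockout. Of 5 lymphocyte markers tested, 5 were called at day 21 and 5 at day 45, and 1 in the knockout, and of 6 endothelial markers 2 were higher at day 45 (23.7% of all genes) and 2 lower in the knockout (14.5% of all genes). Day 0 means were below 1 FPKM for 2 of the 7 ductal, 1 of the 9 stellate and 3 of the 5 lymphocyte markers tested, all called at day 45, which passed the filter through groups in which they were higher. The hepatocyte sum was 20783 to 27827 at day 45, 15215 at day 100, 23482 at day 200 and 24991 to 33207 in the knockout. Serpina1a of this list is at 0 in every floxed liver but that of day 100 (987 FPKM) and at 1286 to 2036 FPKM in the knockout, and without it the sums were 14228 at day 100 and 23705 to 31310 in the knockout. Skeletal muscle markers summed to at most 2.46 FPKM, with Myh4 at 0, and 0 of 3 erythroid markers tested were called. Without knockout replicate C, 2 of these 3 were called higher in the knockout, as were 3 of the 5 lymphocyte markers (31.7% of all genes in that fit). After centring, 7 of 9 stellate cell and fibroblast and 3 of 5 lymphocyte markers were called higher at day 45 (15.1% of all genes). Of the macrophage markers, 5 were then called at day 45 and 1 in the knockout (18.6% of all genes). In the wild type small RNA libraries the 2 erythroid microRNAs summed to 70466 to 158669 RPM at E18 and 124110 to 167633 at P1 but to 10920 to 25085 at P8, where miR-483 was at 3405 and 13123 RPM. Muscle microRNAs were at 678 to 2499 RPM at E18 and 16.4 to 669 at P8. The part of any of these cell types in the levels of Igf2, H19, miR-483 and miR-675 was not tested.

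Of the listed genes for enzymes and partner proteins that make or bind microRNAs, 8 were tested, and 1 was called higher in each of the comparisons of days 21, 45, and 100 with 200 against day 0, and 2 in the knockout, with 0 called lower (over all genes 6.2%, 23.7%, 28.4% and 19.3% were higher; after centring, 1 was lower at day 45 (6.38% of all genes) and 1 at days 100 and 200 (7.93%); without knockout replicate C, 2 higher and 5 lower, against 31.7% and 30.7%). The one called throughout was Drosha, which cuts hairpins out of primary transcripts such as H19 and the Igf2 intron, and which went from 2.54 ± 0.0941 to 5.57 ± 0.486 FPKM at day 21 (n = 3 each, log2 0.89, SE 0.15, limma adjusted p = 0.00569) and 5.88 ± 0.611 at day 45. Dicer1, which cuts the exported hairpin, was at 5.55 ± 1.03 and 5.62 ± 0.936 FPKM at days 0 and 45 (n = 3 each).

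Genes described as targets of miR-675 or miR-483 were also counted. Of 10 such genes 8 were tested, and 1, 3, 3 and 1 were called higher at day 21, day 45, days 100 and 200 and in the knockout, with 0 lower (over all genes 6.2%, 23.7%, 28.4% and 19.3% were higher). Their medians were 0.16, 0.39, 0.50 and -0.10, against 0.06, 0.20, 0.31 and 0.02 over all genes (at day 45 and at days 100 and 200, 1 and 2 were higher after centring, against 15.1% and 16.3% of all genes; without knockout replicate C, 1 higher and 3 lower, against 31.7% and 30.7%). Socs3, a feedback inhibitor of cytokine signalling, went from 4.44 ± 2.57 to 17.5 ± 1.21 FPKM at day 45 (n = 3 each, log2 1.86, SE 0.30, limma adjusted p = 0.00123). Rb1, the retinoblastoma cell cycle inhibitor and a described target of miR-675, was at 1.98 ± 0.291 and 3.00 ± 0.496 FPKM (n = 3 each) and was not called.

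The study also lists 64 predicted miR-483 targets, chosen for their level in these libraries, which makes the list no independent evidence of direction. All 64 were tested, and 3, 9, 14 and 7 were called higher and 0, 0, 0 and 8 lower at day 21, day 45, days 100 and 200 and in the knockout, where 6.2%, 23.7%, 28.4% and 19.3% of all genes were higher and 1.42%, 2.99%, 3.21% and 14.5% lower. Their medians were 0.03, 0.09, 0.28 and -0.07, against 0.06, 0.20, 0.31 and 0.02 over all genes. After centring, 6 were higher and 1 lower at day 45 (15.1% and 6.38% of all genes) and 8 higher and 1 lower at days 100 and 200 (16.3% and 7.93%). Without knockout replicate C, 12 were higher and 24 lower in the knockout, in a fit that called 31.7% of all genes higher and 30.7% lower.

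By the correlation of their log2 levels, Igf2 and H19 were each more like some other genes than like one another. Over the 14 RNA-seq livers and 11353 other genes, Igf2 was most like Fam83a (Pearson r of the log2 level 0.98), Gipc2 (0.97), Npdc1 (0.96), Src (0.96) and Elf3 (0.96), and H19 was at rank 29 (0.94). H19 was most like Mtmr11 (0.97), Src (0.96), Gys1 (0.96), Ccdc120 (0.96) and Lysmd2 (0.96), with Igf2 at rank 36. Over the 42 small RNA livers and 299 other microRNAs, miR-483 was most like miR-675 (0.88), miR-376a (0.88), miR-1193 (0.86), miR-487b (0.86) and miR-341 (0.85). miR-675 was most like miR-1193 (0.92), miR-496 (0.90), miR-329 (0.90), miR-376a (0.90) and miR-380 (0.89), with miR-483 at rank 9.

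Apart from miR-675 itself, each of these neighbours with a known position lies on chromosome 12 (miR-496 had none). Of the compared microRNAs with a position, 45 of 209, or 21.5%, lie on that chromosome, which holds the large imprinted microRNA cluster between Dlk1 and Dio3. These likenesses are descriptions, since the points share their livers, their library depth and the strong contrast between fetal, treated and control mice.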

How the data were processed

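Small RNA (gel-cut, MiSeq) was measured in 42 livers and poly-A RNA (HiSeq) in 14, and every sample column was assigned by its label. For the small RNA, the authors aligned reads to mature mouse microRNAs with Bowtie 0.12.7 and deposited RPM with 1 added to each value. For RNA-seq, the authors aligned reads to mm9 with TopHat and deposited FPKM from Cufflinks 2.2.1, with upper quartile scaling and without ribosomal, small nucleolar and mitochondrial sequences. How reads that match several microRNAs were counted is not given in the sources used here.

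The added 1 was subtracted, reads were recovered from the smallest step of each library (100% of low values were whole within 10% of that step), and RPM were recalculated over reads other than those of miR-122, which makes the other microRNAs comparable while miR-122 is lost. Rows of the 224 symbols with several rows were summed. limma 3.58.1 in R 4.3.3 (lmFit, contrasts, eBayes with trend, two-sided) was fitted to log2(value + 1) of features with a mean of at least 1 FPKM or 10 RPM, with Benjamini-Hochberg adjustment over all features of a contrast and a threshold of 0.05. There was 1 fit for RNA-seq (5 groups, days 100 and 200 joined) and 3 for small RNA (after rAAV-Cre, 17 livers; development, 10; LKO, 7). A difference on this scale understates the change of low genes. p-values measure the spread between mice. Single values were compared with exact permutation tests and relations with 100000 permutations (scipy 1.17.1). Folds against groups at 0 used 3 reads over the group as the limit. The fits were tested on simulated data. Hairpins were matched to mm9 and annotated with GENCODE vM1. Of the listed microRNAs, 363 matched the RefSeq table by name.

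The 4 members, the gene lists and the marker lists were chosen with earlier results of these data known. Named are the 4 members, list genes past the threshold in a main contrast, and the 5 features most like each member. Igf1, Igf1r, Ctcf, Dicer1, Rb1 and Nctc1 were named for their role after their values were seen. The alternatives were another pseudocount, filter, scaling, fit or replicate block, and each mouse left out in turn.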

Additional observations from a re-analysis of the deposited data

How the results depend on the processing

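Of the values that answer a comparison, 435 kept their direction and their side of the threshold under an alternative, 14 newly passed it, 24 no longer passed it and 12 changed sign. Among the genes of the lists these numbers were 911, 15, 124 and 20. The cause of a changed call was not tested. For H19 at day 21 against day 0, the difference passed with a pseudocount of 0.1 (log2 3.88), with only the groups of the contrast in the fit (2.92) and with the replicate block (2.92). For the knockout against day 45, H19 (3.34) did not pass without the filter or with only those groups, and Igf2 (5.32) did not pass with only those groups. With single livers left out, these ranged from 2.31 to 4.13 and from 3.83 to 6.72. For days 100 and 200 against day 45, miR-483 passed with a pseudocount of 10 (5.85) and without the filter (7.02), and miR-675 with a pseudocount of 10 (2.98). Leaving out single livers gave 4.54 to 8.84 for miR-483 and 4.69 to 7.58 for Igf2, both passing without day 45 replicate B. miR-483 at day 45 against day 0 ranged from 3.13 to 7.42. From E14 to E18, miR-483 passed with the replicate block (3.87) and ranged from 2.23 to 5.51 with single livers left out, passing without E14 replicate B. In LKO_flox against day 0, miR-483 did not pass with a pseudocount of 10 (4.97), without the filter (7.69) or with the replicate block (7.69), and ranged from 2.78 to 12.59. In LKO_floxCre it ranged from 11.83 to 12.36 against day 0, passing with neither library alone, and from -0.49 to 9.31 against LKO_flox, with -1.66 to 2.69 for miR-675. The exact test of livers from day 21 on against day 0 ranged from log2 3.61 to 5.18 for Igf2 and from 4.06 to 5.08 for miR-675. Chosen after seeing the data were the relation of Igf2 and miR-483 up to day 45 (rho 0.56) and the share of miR-483 at days 100 and 200 only (-3.07 percentage points) or with a minimum of 5 reads (-24.7 percentage points), none of which passed.

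Each value that changed sign was of a difference not called in either fit. Scaled to all listed reads, P1 against E18 was -0.62 for miR-483 and -0.46 for miR-675, and P8 against P1 was -0.52 and -0.36. With single livers left out, P1 against E18 ranged from -0.60 to 0.74 and from -0.098 to 0.56, P8 against P1 from -0.74 to 1.20 and from -0.16 to 0.93, and Igf2 at day 21 from -0.045 to 0.82. Centred, day 45 gave -0.017 for Igf2as, -0.048 for Igfbp4, -0.11 for Peg3 and -0.085 for Zfp445, days 100 and 200 gave -0.27 for Igfbp4, -0.043 for Slc22a18 and -0.19 for Smc3, and the knockout gave -0.017 for Dnmt3a. With single livers left out, Igfbp4 ranged from -0.0094 to 0.39 at day 45 and from -0.14 to 0.26 at days 100 and 200, Zfp445 from -0.14 to 0.54 and from -0.62 to 0.054, Smc3 from -0.0057 to 0.25 at days 100 and 200, and in the knockout Dnmt3a from -0.12 to 0.18 and Peg3 from -0.42 to 0.020.

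Of pairs of livers with 1 replicate letter, 8 of 18 in RNA-seq, 15 of 30 after rAAV-Cre, 18 of 20 in development and 0 of 2 in LKO had a correlation of their deviations over 0.1. Pairing required this of every pair, so the letter was not used to pair mice, although in development all 20 were above 0 (lowest 0.091, median 0.267). With 2 libraries in each group of development and LKO, the deviations of A and B from their mean are equal and opposite. Pairs of A and pairs of B there thus give the same value. The median of -0.267 for other letters in development is the same-letter median with its sign changed and adds nothing to it. Beyond the calls named above, the replicate block changed no other call of the 4 members. Over all genes at day 21, 704 were called higher, 1401 with only those groups in the fit, 382 with the block and 194 to 329 without day 0 replicate A or B or day 21 replicate B or C. At day 45 there were 2688, and 1601 without replicate B. At days 100 and 200 there were 3227, with 5385 without the filter and 1501 without day 100. In the knockout there were 2191, with 830 from the fit of its own groups, 1063 without knockout replicate B and 3610 without replicate C, and 1339 and 1354 without knockout replicate A or day 0 replicate B. With the filter raised to 5 FPKM, the counts of these 4 comparisons were 361, 1223, 1401 and 1212. Scaled to all listed reads, 168, 142, 146 and 136 microRNAs were called higher at day 45, at days 100 and 200, in LKO_flox and in LKO_floxCre, against 54, 59, 40 and 61. The edgeR and DESeq2 alternatives on recovered reads were not run. Depth limits miR-483 and miR-675 before day 36 and at P21 and P28, and days 100 and 200 have 1 liver each.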
